A study of Homo sapiens with 12 samples.

Results

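The circadian clock genes PER1, PER2, PER3, CRY1, CRY2, ARNTL, CLOCK, NR1D1, NR1D2 and BHLHE40 were followed in HepG2 cells at 5 times up to 240 min after insulin stimulation. HepG2 is a human hepatocellular carcinoma cell line. The 10 genes were taken by name from the 26364 genes of the count table. All 10 passed the filter on low counts, as did 13852 genes in all. RNA-seq libraries were made at 0, 5, 10, 30 and 240 min after insulin, with 2 replicates at each time. Chromatin bound by the insulin receptor (IR) in the same line was sequenced in 1 ChIP-seq library, with an input library.

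The library titles give the time after insulin, and these times define the groups. The treatment text stored with every RNA-seq library, those at 0 min included, reads EMEM medium for 16 h and then 3 nM insulin with BSA for 5 min. That of the IR ChIP-seq and input libraries also gives 3 nM insulin. The extraction text stored with the RNA-seq libraries describes DNA, whereas that of the ChIP-seq libraries names a kit for RNA, so it cannot be told which treatment text belongs to which assay. No library without insulin at 240 min was used here, so insulin and the time spent in the medium cannot be told apart. The labels do not say whether replicates came from separate cultures. The paper that reported these data states that RNA-seq was done once, on biologically independent samples. The p-values measure only the spread between these libraries.

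The mammalian clock is a loop of transcription. CLOCK and ARNTL, also called BMAL1, form a pair that binds E-box sequences and activates the PER and CRY genes, whose proteins return to the nucleus and repress that pair. NR1D1 and NR1D2, the REV-ERB nuclear receptors, repress ARNTL in a linked loop, and BHLHE40, also called DEC1, competes for E-boxes as a repressor. In liver the clock is known to respond to feeding, and insulin is among the signals that reset it.

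Regulatory sequences are shown first for PER1, PER2 and BHLHE40, repressors that were higher at 240 min, and for NR1D1 and PER3, the members with an IR peak, since the clock acts through E-boxes and these windows show where such letters stand. Capitals mark the E-box, whose letters are CACGTG. They also mark a variant E-box whose last letter differs, spelled CACGTT, and, in the PER1 and NR1D1 windows, a nuclear receptor motif, spelled AGGTCA. All were searched on both strands, so some stand in the sequence as the reverse complement. The first 3 sequences run from 250 bases before to 50 bases after the RefSeq start, 5′ to 3′ on the strand of the gene, and lie in GRCh38.p14 at chr17:8152355-8152654 on the minus strand (PER1), chr2:238288561-238288860 on the minus strand (PER2) and chr3:4979187-4979486 on the plus strand (BHLHE40). The last 2 are the central 300 bases of the IR peaks at NR1D1 and PER3, read from GRCh37 at chr17:38257103-38257402 on the minus strand and chr1:7843738-7844037 on the plus strand.
PER1 promoter: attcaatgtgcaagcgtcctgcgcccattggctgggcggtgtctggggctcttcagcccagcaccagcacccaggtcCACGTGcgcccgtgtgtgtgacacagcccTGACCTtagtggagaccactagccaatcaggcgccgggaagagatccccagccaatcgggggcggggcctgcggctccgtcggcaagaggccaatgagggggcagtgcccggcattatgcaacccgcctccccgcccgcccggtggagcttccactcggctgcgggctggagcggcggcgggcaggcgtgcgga
PER2 promoter: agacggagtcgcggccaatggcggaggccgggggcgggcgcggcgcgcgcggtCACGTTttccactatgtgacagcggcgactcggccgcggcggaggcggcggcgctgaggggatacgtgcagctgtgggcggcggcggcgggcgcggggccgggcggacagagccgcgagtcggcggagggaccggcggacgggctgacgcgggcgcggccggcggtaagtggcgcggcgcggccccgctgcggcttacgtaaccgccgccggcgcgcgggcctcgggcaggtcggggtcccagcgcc
BHLHE40 promoter: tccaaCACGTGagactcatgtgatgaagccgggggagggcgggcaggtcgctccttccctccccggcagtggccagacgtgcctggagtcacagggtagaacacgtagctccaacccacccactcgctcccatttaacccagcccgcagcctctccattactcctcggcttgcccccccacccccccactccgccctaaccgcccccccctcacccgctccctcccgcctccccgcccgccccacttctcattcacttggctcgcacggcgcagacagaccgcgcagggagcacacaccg
NR1D1 peak centre: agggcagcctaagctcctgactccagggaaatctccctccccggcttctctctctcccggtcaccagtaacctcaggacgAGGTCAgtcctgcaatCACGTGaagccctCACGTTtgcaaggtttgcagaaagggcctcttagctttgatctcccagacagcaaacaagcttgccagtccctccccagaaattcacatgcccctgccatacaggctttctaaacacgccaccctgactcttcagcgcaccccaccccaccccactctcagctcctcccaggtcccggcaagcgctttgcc
PER3 peak centre: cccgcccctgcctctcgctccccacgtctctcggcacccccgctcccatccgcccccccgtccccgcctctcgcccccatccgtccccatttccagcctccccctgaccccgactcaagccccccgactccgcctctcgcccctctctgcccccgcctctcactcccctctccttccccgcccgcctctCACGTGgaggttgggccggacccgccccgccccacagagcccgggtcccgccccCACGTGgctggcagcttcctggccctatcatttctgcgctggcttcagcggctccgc

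The E-box of PER1 began 173 bases before the RefSeq start and that of BHLHE40 began 245 bases before it, while PER2 held the variant 197 bases before its start. RefSeq gave 15 promoters for the 10 genes. The E-box was present at 3 of the 10 genes, which were PER1, NR1D2 and BHLHE40, and in 3 of the 15 promoters. The variant E-box was present at 5 of them, namely PER2, CRY1, CRY2, CLOCK and NR1D1, and in 5 of the 15 promoters. The nuclear receptor motif was present at PER1, CRY2 and ARNTL, in 4 of the 15 promoters, and in PER1 it began 144 bases before the start. Among all 35116 RefSeq promoters of the same length, 7.26% held the E-box, 5.34% the variant and 13.8% the nuclear receptor motif. A forkhead motif, spelled GTAAACA, was present at CRY1 alone of the 10 genes and in 3.42% of all promoters. The cyclic AMP response element, spelled TGACGTCA, was present at 0 of the 10 genes and in 1.85% of all promoters. These matches describe the letters of the windows and were not tested against expression.

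The RNA-seq libraries held 18347109 to 45005769 reads counted on genes, and the deepest was replicate 2 at 0 min. All 9 hepatocyte markers examined, albumin, transthyretin and HNF4A among them, were at 1 TPM or more in every library, with a summed level of 41402 to 52314 TPM. Markers of endothelial cells summed to 0.958 to 2.07 TPM, of fibroblasts to 4.66 to 6.52 TPM and of leukocytes to 48.7 to 60.3 TPM. The leukocyte sum came from CD68, while PTPRC, which defines leukocytes, was under 1 TPM in every library. The chi-square of the counts between replicates was 2.81 to 6.32 per degree of freedom, above sampling noise, and both replicates of each time were used.

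Levels are compared between genes only as TPM, which are scaled for transcript length, and over time as CPM, which divides counts by TMM-adjusted library totals. At 0 min NR1D2 was the most abundant of the 10 genes, with a mean of 21.0 ± 0.70 TPM (SD, n = 2). CRY1 followed at 15.7 ± 1.46 TPM and CLOCK at 15.0 ± 0.610 TPM, and the libraries of these neighbours overlapped. CRY2 stood at 11.4 ± 0.330 TPM and PER2 at 9.54 ± 0.580 TPM. ARNTL at 8.58 ± 0.669 TPM, BHLHE40 at 8.30 ± 1.44 TPM and NR1D1 at 8.13 ± 0.401 TPM were neighbours whose libraries overlapped in turn. PER3 at 5.82 ± 0.170 TPM and PER1 at 3.92 ± 0.00326 TPM were the lowest. The lowest value of any of the 10 genes in any library was 3.20 TPM, that of PER1 in replicate 2 at 30 min.

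The first question is how the clock genes differed between 240 min and 0 min. All 3 PER genes, CLOCK and BHLHE40 were higher at 240 min than at 0 min, by 29.3% to 49.9%, and no member was past the threshold in the other direction. PER2, a repressor of the loop, showed the largest rise (log2 fold change 0.58), although its 95% interval overlapped that of BHLHE40 (0.49). CRY1, CRY2, ARNTL, NR1D1 and NR1D2 did not pass the test. The 5 members called higher stand beside 20.6% of all genes tested called higher, and the 0 members called lower beside 20.4% called lower, with 41% called in either direction (edgeR's quasi-likelihood test, Benjamini-Hochberg adjusted p under 0.05 over 13852 genes). The median log2 fold change of the 10 members was 0.24, and that of all genes tested was -0.0026. Without replicate 2 at 0 min 2 members were called, and without replicate 2 at 240 min 3 were. When libraries were scaled by their ERCC spike-ins no member was called, and the median log2 fold change of all genes moved to -0.12. The 5 members called above kept their direction, from 0.25 for PER3 to 0.47 for PER2. The SE was wider with this scaling, as for PER2 at 5 min against 0 min, with 0.19 beside 0.077 in the main fit. Why the calls were lost was not tested.

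**Figure D1:**
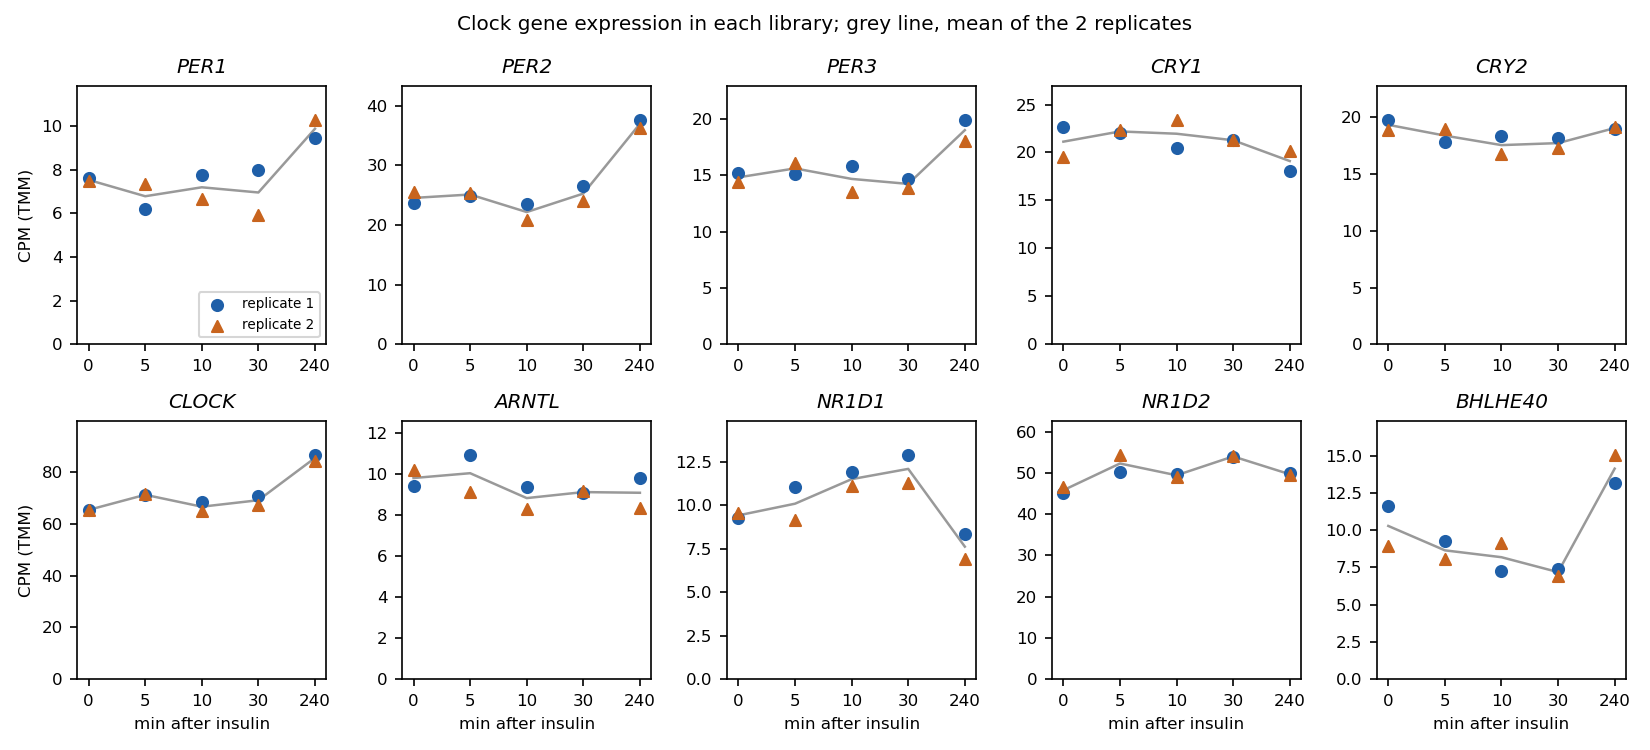
Expression of the 10 clock genes in each library as CPM after TMM scaling (vertical axes from 0) at 0, 5, 10, 30 and 240 min after insulin. Circles and triangles are replicates 1 and 2 and the grey line joins their means. The PER genes, CLOCK and BHLHE40 have both 240 min libraries above all others, and NR1D1 is highest at 30 min and lowest at 240 min.

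Among the PER genes, whose proteins are the inhibitory arm of the clock, PER2 (chr2:239152679-239197207 in GRCh37, minus strand) moved most. Its level was 23.61 and 25.45 CPM (0 min), 24.85 and 25.36 (5 min), 23.55 and 20.78 (10 min), 26.48 and 24.03 (30 min), and 37.65 and 36.27 (240 min). Both 240 min libraries were above the other 8 libraries, while the 0, 5 and 30 min libraries overlapped. The log2 fold change at 240 min was 0.58 with an SE of 0.074 and a 95% interval of 0.43 to 0.74 (edgeR adjusted p = 4.35e-06). It stayed past the threshold in 10 of 11 alternative analyses and with each of the 4 libraries compared left out. The exception was spike-in scaling, with a log2 fold change of 0.47 and an adjusted p of 0.115.

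PER1 (chr17:8043788-8055753, minus strand), the PER gene known as the quickest to respond to many signals, was the least abundant member. Its level was 7.61 and 7.47 CPM (0 min), 6.21 and 7.37 (5 min), 7.76 and 6.64 (10 min), 8.0 and 5.92 (30 min), and 9.47 and 10.30 (240 min). The 240 min libraries were again the highest pair. Both 5 min libraries lay below both 0 min libraries, and those of 10 and 30 min overlapped the 0 min pair. The log2 fold change at 240 min was 0.39 with an SE of 0.13 and a 95% interval of 0.11 to 0.66 (edgeR adjusted p = 0.0236). PER1 was called in 6 of 11 alternatives and in 1 of the 4 fits with a library left out, where its log2 fold change was 0.33 to 0.45. The adjusted p was 0.0596 without replicate 1 at 0 min, 0.132 without replicate 2 at 0 min and 0.117 without replicate 2 at 240 min. Counts of 122 to 333 reads per library underlie these values. The microRNA gene MIR6883 lies inside PER1 on the same strand and was counted at 0 reads.

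PER3 (chr1:7844489-7905240, plus strand) stood at 15.21 and 14.43 CPM (0 min) and 15.16 and 16.07 (5 min). It was at 15.83 and 13.54 (10 min), 14.64 and 13.84 (30 min), and 19.94 and 18.08 CPM (240 min). As for the other PER genes, the 240 min pair lay above all other libraries. Its log2 fold change at 240 min was 0.37 with an SE of 0.092 and a 95% interval of 0.18 to 0.56 (edgeR adjusted p = 0.00313). PER3 was called in 10 of 11 alternatives, the exception being spike-in scaling (adjusted p = 0.505). It was called in 2 of the 4 fits with a library left out, and its adjusted p was 0.0544 without replicate 2 at 0 min and 0.0647 without replicate 1 at 240 min.

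The CRY genes, partners of the PER proteins in repression, did not pass the test at any time. CRY1 (chr12:107385143-107487635, minus strand) was at 22.68 and 19.57 CPM (0 min), 22.04 and 22.34 (5 min), 20.49 and 23.42 (10 min), 21.28 and 21.27 (30 min), and 18.02 and 20.18 (240 min). The 240 min and 0 min libraries overlapped, and the log2 fold change was -0.13 with a 95% interval of -0.32 to 0.056 (edgeR adjusted p = 0.252). CRY2 (chr11:45868669-45904799, plus strand) lay between 16.78 CPM, in replicate 2 at 10 min, and 19.80 CPM, in replicate 1 at 0 min. At 240 min its libraries held 18.94 and 19.19 CPM, inside the range of the 0 min pair of 18.90 and 19.80 CPM. Its log2 fold change was -0.017 with a 95% interval of -0.18 to 0.15 (edgeR adjusted p = 0.888).

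The activators CLOCK and ARNTL, which work as a pair, had different values at 240 min. CLOCK (chr4:56294068-56413076, minus strand) was at 65.58 and 65.31 CPM (0 min), 71.03 and 71.57 (5 min), 68.50 and 64.89 (10 min), 71.01 and 67.39 (30 min), and 86.88 and 84.26 (240 min). Both 240 min libraries were above all others. The log2 fold change was 0.39 with an SE of 0.051 and a 95% interval of 0.28 to 0.50 (edgeR adjusted p = 6.80e-06). CLOCK was called in 10 of 11 alternatives, the exception being spike-in scaling (adjusted p = 0.421), and in all 4 fits with a library left out.

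ARNTL (chr11:13299274-13408812, plus strand) showed no such difference. It was at 9.42 and 10.21 CPM (0 min), 10.96 and 9.14 (5 min), 9.37 and 8.30 (10 min), 9.08 and 9.18 (30 min), and 9.83 and 8.36 (240 min). The libraries at 0 and 240 min overlapped. The log2 fold change at 240 min was -0.11 with a 95% interval of -0.36 to 0.13 (edgeR adjusted p = 0.478). Whether CLOCK and ARNTL differed from each other in their change was not tested.

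BHLHE40 (chr3:5021097-5026865, plus strand), the E-box repressor, was lowest at 30 min and highest at 240 min. Its level was 11.64 and 8.93 CPM (0 min), 9.26 and 8.04 (5 min), 7.26 and 9.11 (10 min), 7.43 and 6.94 (30 min), and 13.19 and 15.09 (240 min). Both 30 min libraries lay below both 0 min libraries, and both 240 min libraries lay above them. The log2 fold change at 240 min against 0 min was 0.49 with an SE of 0.13 and a 95% interval of 0.22 to 0.76 (edgeR adjusted p = 0.00483). The 0 min replicates stood apart from each other, and the call held in 8 of 11 alternatives and in 2 of the 4 fits with a library left out. Without replicate 2 at 0 min its log2 fold change was 0.27 (adjusted p = 0.187), and without replicate 2 at 240 min it was 0.39 (adjusted p = 0.0503). The antisense gene BHLHE40-AS1 overlaps BHLHE40 by 550 bases on the other strand. It was counted at 0 to 3 reads per library, and reads were counted by strand.

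The nuclear receptors NR1D1 and NR1D2 did not pass the test at 240 min against 0 min. NR1D1 (chr17:38249037-38256978, minus strand) was at 9.28 and 9.56 CPM (0 min), 11.04 and 9.14 (5 min), 11.89 and 11.11 (10 min), 12.92 and 11.26 (30 min), and 8.35 and 6.89 (240 min). Both 240 min libraries were below the other 8, and both 10 min and both 30 min libraries were above both at 0 min. The log2 fold change at 240 min against 0 min was -0.30 with an SE of 0.12 and a 95% interval of -0.56 to -0.038 (edgeR adjusted p = 0.0627). It was past the threshold without replicate 1 at 240 min (-0.46, adjusted p = 0.0352) and when genes with low counts were kept in the fit (-0.29, adjusted p = 0.0440). Without replicate 2 at 240 min it was -0.18 (adjusted p = 0.354). THRA, a thyroid hormone receptor gene on the other strand, overlaps the end of NR1D1 by 1084 bases and had a log2 fold change of -0.22 (edgeR adjusted p = 0.0789).

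NR1D2 (chr3:23986751-24022109, plus strand) was at 45.04 and 46.55 CPM (0 min), 50.10 and 54.44 (5 min), 49.77 and 49.05 (10 min), 53.82 and 54.14 (30 min), and 49.92 and 49.41 (240 min). The 0 min pair was the lowest of the 5 times. At 240 min the log2 fold change was 0.11 with a 95% interval of -0.0050 to 0.23 (edgeR adjusted p = 0.118).

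**Figure D2:**
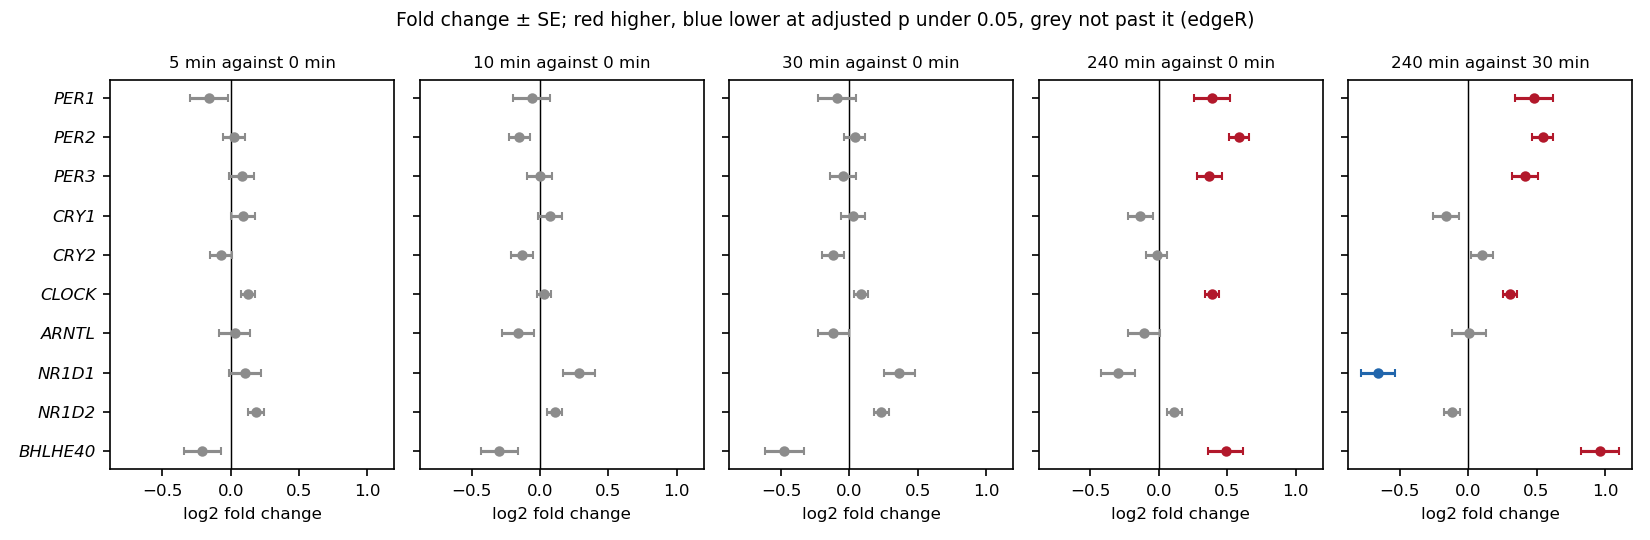
Log2 fold change of each clock gene (horizontal axes) with bars of 1 SE, in 5 comparisons from edgeR over 10 libraries. Red points passed the adjusted threshold as higher and blue as lower, and grey points did not pass it. No member is coloured at 5, 10 or 30 min against 0 min, 5 are red at 240 min against 0 min, and 5 are red and NR1D1 is blue at 240 min against 30 min.

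The earlier times ask whether clock genes moved within 30 min. No member passed the adjusted threshold at 5, 10 or 30 min against 0 min (edgeR's quasi-likelihood test), where 0%, 0.137% and 0.332% of all genes tested did. At an unadjusted p under 0.05 there were 2 members at 5 min, 2 at 10 min and 3 at 30 min, beside 1976, 710 and 1125 of all 13852 genes tested. These comparisons and that at 240 min share the same 0 min libraries. At 5 min the unadjusted members were CLOCK, at 0.12 on the log2 scale (adjusted p = 0.304), and NR1D2, with 0.19 (adjusted p = 0.250). At 10 min they were NR1D1, with 0.29 (adjusted p = 0.822), and BHLHE40, with -0.30 (adjusted p = 0.935). The BHLHE40 value was -0.13 without replicate 1 at 0 min, -0.51 without replicate 2 at 0 min, -0.14 without replicate 1 at 10 min and -0.47 without replicate 2 at 10 min.

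At 30 min the REV-ERB genes and BHLHE40 had the largest differences from 0 min. NR1D2 had a log2 fold change of 0.23 with an SE of 0.056 (edgeR adjusted p = 0.106), and NR1D1 had 0.36 with an SE of 0.11 (adjusted p = 0.325). BHLHE40 had -0.48 with an SE of 0.14 (adjusted p = 0.266), and -0.31 without replicate 1 at 0 min, where the adjusted p was 0.9997. In each of these 3 genes the 30 min libraries did not overlap the 0 min libraries. The same held for CRY2 and ARNTL, which were lower, and for CLOCK, which was higher. The share of all genes tested without overlap was not computed. With no filter on low counts NR1D2 (adjusted p = 0.0413) and BHLHE40 (adjusted p = 0.00863) passed the threshold at 30 min. The median log2 fold change of the members was 0.055 at 5 min, -0.032 at 10 min and -0.011 at 30 min, beside 8.27e-05, -0.0014 and -0.0050 for all genes tested.

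The comparison of 240 min with 30 min does not set any level against the 0 min libraries. Those libraries still enter the estimate of spread that all comparisons share. The same 5 members as against 0 min were higher at 240 min, and NR1D1 was lower. BHLHE40 and NR1D1 had the largest differences, in opposite directions. These calls stand beside 19.8% of all genes tested called higher, 18.4% called lower and 38.2% called in either direction (edgeR's quasi-likelihood test). The median log2 fold change was 0.20 over the members and -0.00015 over all genes tested.

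BHLHE40 had a log2 fold change of 0.96 from 30 to 240 min, with an SE of 0.14 and a 95% interval of 0.67 to 1.26 (edgeR adjusted p = 1.96e-05), a level 1.95 times as high. NR1D1 had -0.66 with an SE of 0.12 and a 95% interval of -0.92 to -0.40 (edgeR adjusted p = 2.87e-04), so its level fell by 36.8%. Both calls held in 11 of 11 alternatives and in all 4 fits with a library left out. With spike-in scaling the adjusted p of NR1D1 was 0.0439 and that of BHLHE40 was 5.03e-04. THRA, which overlaps NR1D1, had a log2 fold change of -0.21 (adjusted p = 0.113) between these times.

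The PER genes and CLOCK also differed between 30 and 240 min. PER2 had a log2 fold change of 0.55 (SE 0.076, edgeR adjusted p = 1.35e-05), and PER1 had 0.48 (SE 0.14, adjusted p = 0.00952). For PER3 the value was 0.42 (SE 0.095, adjusted p = 0.00166) and for CLOCK it was 0.31 (SE 0.052, adjusted p = 1.09e-04). With spike-in scaling the directions of these 4 genes held but none passed the threshold, with adjusted p from 0.0568 for PER2 to 0.390 for CLOCK. PER1 was called in 8 of 11 alternatives, and its call was also lost with limma on TPM without a filter (adjusted p = 0.0642 and 0.0722). It was lost without replicate 2 at 30 min (0.30, adjusted p = 0.121) and without replicate 2 at 240 min (0.42, adjusted p = 0.0571), and the value was 0.73 without replicate 1 at 30 min. CRY1 (-0.16), CRY2 (0.10), ARNTL (0.0057) and NR1D2 (-0.12) did not pass the test on the log2 scale.

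Beyond the 10 genes, 20 other genes of the clock and its outputs are described, and 17 of them passed the filter on low counts. None of the 17 was called at 5, 10 or 30 min, where 1, 1 and 0 had an unadjusted p under 0.05 (edgeR's quasi-likelihood test). At 240 min against 0 min 5 were higher, 3 were lower and 9 did not pass the test, beside 20.6% of all genes tested called higher and 20.4% called lower, and their median log2 fold change was -0.011. Against 30 min 4 were higher and 4 lower, beside 19.8% and 18.4% of all genes tested, with a median of -0.00071. The genes higher at 240 min against 0 min were 3 outputs, a repressor and a deubiquitinase, and those lower were a ubiquitin ligase subunit and 2 bZIP transcription factors.

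NOCT, a clock output known for its part in lipid metabolism, was at 4.82 and 4.67 CPM (0 min) and 10.03 and 9.93 CPM (240 min). Its log2 fold change was 1.08 with an SE of 0.12 (edgeR adjusted p = 6.67e-07), and it was past the threshold in all 11 alternatives. TEF, a PAR bZIP transcription factor driven by the clock, was at 13.50 and 14.12 CPM (0 min) and 23.10 and 21.66 CPM (240 min). Its log2 fold change was 0.69 (SE 0.10, adjusted p = 1.88e-05). In both genes the 240 min libraries did not overlap those of 0 min. The same held for genes of the list that did not pass the test, among them NPAS2, ARNTL2, FBXL21, CSNK1D and DBP.

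NAMPT, the enzyme of NAD salvage, was at 26.11 and 27.79 CPM (0 min) and 41.80 and 39.21 CPM (240 min), with a log2 fold change of 0.58 (SE 0.066, edgeR adjusted p = 1.01e-06). USP2, a deubiquitinase that acts on clock proteins, had 0.23 (SE 0.072, adjusted p = 0.0137) and was called in 7 of 11 alternatives. BHLHE41, the paralog of BHLHE40, had 1.29 (SE 0.33, adjusted p = 0.00426), from 9 and 16 reads at 0 min and 23 and 18 reads at 240 min. At counts this low the size of its rise is imprecise, and BHLHE41 did not pass the test against 30 min (adjusted p = 0.135).

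The genes lower at 240 min had smaller differences. BTRC, a ubiquitin ligase subunit that acts on PER proteins, had a log2 fold change of -0.19 (SE 0.053, edgeR adjusted p = 0.00737). NFIL3, the repressor that opposes the PAR bZIP factors, had -0.17 (SE 0.063, adjusted p = 0.0355), and HLF, one of those factors, had -0.16 (SE 0.048, adjusted p = 0.0127). Of the 11 alternatives, BTRC and HLF were called in 7 each and NFIL3 in 4. These 3 genes were also lower at 240 min than at 30 min, as was RORA, a nuclear receptor that activates ARNTL (-0.36, SE 0.093, adjusted p = 0.00438). The value of RORA against 0 min was -0.20 (adjusted p = 0.0900). Without replicate 2 at 0 min 3 genes of the list were called at 240 min against 0 min, without replicate 2 at 240 min 5 were, and with spike-in scaling 1 was, which was NOCT (adjusted p = 0.00124). NOCT, TEF and NAMPT were called in all 4 fits with a library left out, BHLHE41 in 3, HLF, NFIL3 and BTRC in 2, and USP2 in 1.

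**Figure D3:**
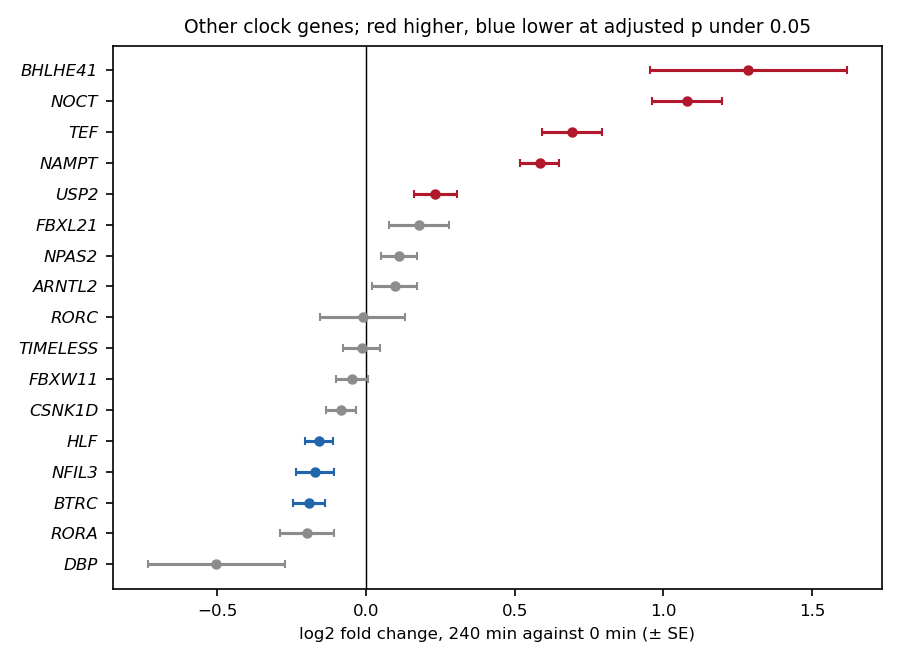
Log2 fold change at 240 min against 0 min (horizontal axis, bars of 1 SE) of the 17 other clock genes that passed the filter on low counts, in order of size. Red points passed the adjusted threshold of edgeR as higher and blue as lower. BHLHE41, with 9 to 23 reads in these libraries, has the widest bar, NOCT, TEF and NAMPT are the next highest, and the 3 lower genes lie between -0.19 and -0.16.

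Of the 3 listed genes that did not pass the filter, RORB and CIART were at or near 0 TPM. CSNK1E, a kinase of PER proteins, was counted at 1 read or fewer although StringTie gave it a mean of 66.7 ± 1.67 TPM at 0 min (SD, n = 2). It lies within a readthrough gene named LOC400927-CSNK1E on the same strand, with which it shares 27393 bases. No value over time is given for it here.

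The genes whose patterns were most like that of PER2, the member with the largest rise, were sought among the 12327 tested genes whose mean reached 1 CPM. Likeness was the root mean square difference over the 10 libraries of log2 CPM minus the 0 min mean. The nearest were KBTBD6 (0.061), DOPEY1 (0.069), C12orf49 (0.069), CHST3 (0.071) and ADH4 (0.082). KBTBD6 is a substrate adaptor of a ubiquitin ligase, CHST3 a sulfotransferase and ADH4 a liver alcohol dehydrogenase. At 240 min against 0 min their log2 fold changes were 0.61, 0.49, 0.55, 0.47 and 0.56 in that order, and that of PER2 was 0.58. This likeness is a description across libraries and carries no test.

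No member fell past the threshold against 0 min, so the same search for NR1D1 was added after its values were seen. The nearest genes were KLF11 (0.11), RPL36A (0.11), PLCE1 (0.13), C1D (0.14) and SLC44A3 (0.14). KLF11, a zinc finger transcription factor, had a log2 fold change of 0.32 at 30 min and -0.27 at 240 min, both against 0 min. Its mean level was 31.5 CPM at 0 min, 39.2 CPM at 30 min and 26.3 CPM at 240 min. The 5 genes were picked for likeness to NR1D1 over these same libraries, so their values are a description and carry no test. RPL36A, a ribosomal protein gene, has near-identical copies that can share its reads, so its value is uncertain.

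**Figure D4:**
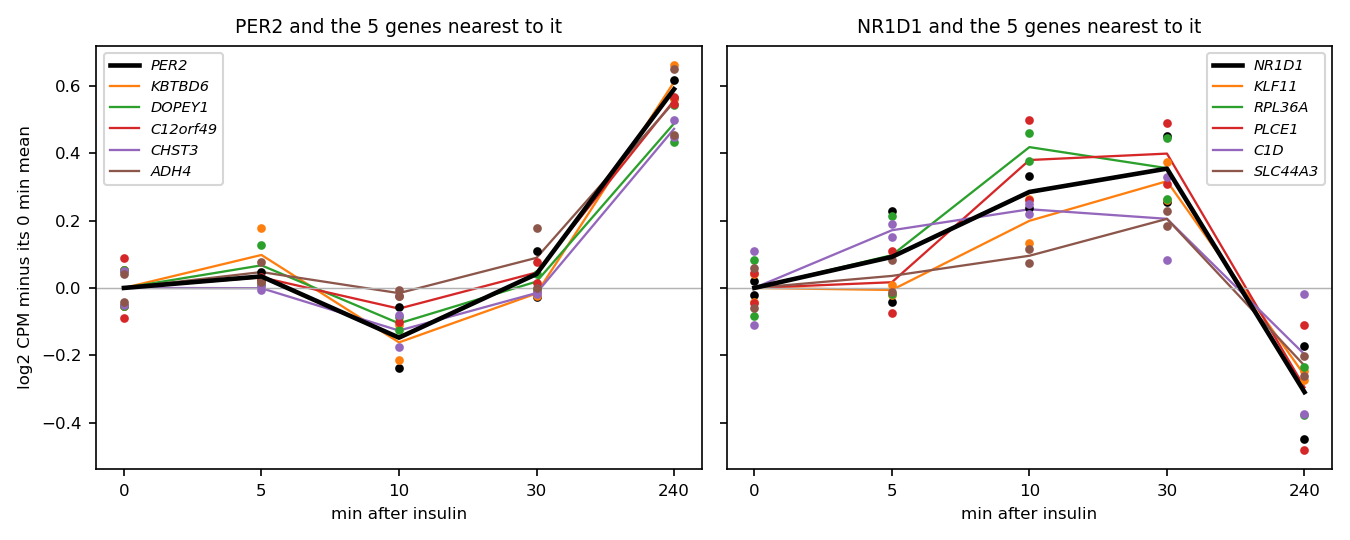
Patterns of PER2 (left) and NR1D1 (right) with the 5 genes nearest to each, as log2 CPM minus the 0 min mean of the gene (vertical axis) at each time after insulin. Points are libraries and lines join the means of 2 replicates. The PER2 group stays near 0 to 30 min and lies between 0.47 and 0.61 (240 min), and the NR1D1 group is above 0 at 30 min and below 0 at 240 min.

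The ChIP-seq library asks where IR was found near the clock genes. Of the 1971 IR peaks, 2 lay in the body of a member extended by 5 kb, 1 at NR1D1 and 1 at PER3, so that 2 of the 10 members had a peak. The share over all 26364 genes was 9.64%. There was 1 IR library, so the presence of a peak has no replicate check and no test.

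The NR1D1 peak spanned chr17:38256956-38257548 in GRCh37, 593 bases, and held the gene start in the StringTie table at 38256978. Its near edge lay 114 bases upstream of the start that GENCODE gives, and no GENCODE transcript overlapped it. Its score was 106, rank 821 of 1971, above the median score of 79. The central 300 bases printed above hold the nuclear receptor motif, the E-box and the variant E-box in that order within a short stretch, and the whole peak holds a further variant E-box.

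The PER3 peak spanned chr1:7843673-7844101, 429 bases, and lay 388 bases upstream of the gene start in the StringTie table. It lay 250 bases from the GENCODE start and overlapped no GENCODE transcript. Its score was 21, rank 1833 of 1971, and it was lost when only peaks above the median score were counted. Its central 300 bases hold the E-box at 2 places, as the capitals show. Over the central 300 bases of all 1971 peaks, 6.44% held the E-box, 5.12% the variant and 10.1% the nuclear receptor motif. Of the genes with a peak, PER3 was higher at 240 min than at 0 min, and NR1D1 was lower at 240 min than at 30 min. Whether a peak is related to either difference was not tested.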

How the data were processed

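RNA-seq of HepG2 cells in 10 libraries and the peaks of 1 IR ChIP-seq library were analysed. The authors trimmed reads with Trim Galore 0.6.4, aligned them to hg19 with STAR 2.6.1d, counted them per gene as reverse-stranded with featureCounts 1.6.4 and deposited raw counts. The authors also deposited StringTie abundances as TPM, and a table of peaks from BWA 0.7.17-r1188 and MACS2 2.2.7.1 with a score for each peak, annotated by HOMER.

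All 10 libraries entered 1 edgeR 4.0.16 model (R 4.3.3) with TMM scaling, filterByExpr and no replicate block, and times were compared by the quasi-likelihood test. P-values were adjusted by Benjamini-Hochberg over 13852 genes, with a threshold of 0.05. The SE of a fold change was its size over the root of the F statistic. The 92 ERCC rows (1.59% to 2.36% of counts) were set aside. The script was tested on simulated data. The members and lists were chosen with earlier results of these data known, and 1 further gene of the wider list is not reported here. The genes named are the 10 members, the other clock genes past the threshold at any time, genes overlapping a member and the 5 genes most like PER2 in pattern. Those like NR1D1, other genes named without a call, and the search for motifs were added after values were seen.

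Alternatives were DESeq2 1.42.0, RLE, upper-quartile and ERCC scaling, no filter, at least 10 counts in every library, only the times compared, a replicate block, limma 3.58.1 on log2(TPM + 1) or, alternatively, log2(TPM + 0.1), the former also with a mean of at least 1 TPM, and each replicate left out. Promoter sequences are from RefSeq (GRCh38.p14) and matched all 10 members, ARNTL as BMAL1. Peak sequences are from GRCh37. Python 3.11.15, pandas 2.3.3, numpy 2.4.6 and matplotlib 3.10.9 were used.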

Additional observations from a re-analysis of the deposited data

Results flagged for a closer look

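Clock genes whose difference from 0 min was not the same at 240 min as at 30 min, by the test of 240 min against 30 min (edgeR's quasi-likelihood test, adjusted over all genes), were BHLHE40 (log2 difference 0.96), PER2 (0.55), PER1 (0.48), PER3 (0.42), CLOCK (0.31) and NR1D1 (-0.66). BHLHE40 lay below its 0 min level at 30 min (-0.48) and above it at 240 min (0.49), and NR1D1 lay above it at 30 min (0.36) and below it at 240 min (-0.30). Of these 4 values, 1 was past the adjusted threshold, that of BHLHE40 at 240 min. The level of both genes at 0 min enters each of the 4 values.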

How the results depend on the processing

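At 240 min against 0 min 5 members were called. Of the alternatives, ERCC scaling gave 0 and limma without a filter gave 3 with either pseudocount. With a replicate left out the count was 2 to 5, lowest without replicate 2 at 0 min. Against 30 min 6 were called, 2 with ERCC scaling and 5 to 6 with a replicate left out. At 30 min against 0 min, no filter on low counts gave 2 in place of 0. The other clock genes called numbered 8, and 1 with ERCC scaling, 4 with limma without a filter, 3 with limma at a mean of at least 1 TPM, and 3 to 8 with a replicate left out. Members with an IR peak numbered 2, 1 with peaks above the median score and 3 with gene bodies extended by 20 kb. No fold change past the threshold changed sign. In each case the cause was not tested.

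Same-numbered replicates showed little shared deviation, with correlations of -0.115 to 0.133 over 10 pairs of times, and the main model did not pair them. Such correlations cannot tell whether the numbers mark a shared culture or batch. With the replicate block 6 members were called at 240 min against 0 min and 6 against 30 min, and 0 at 5, 10 and 30 min. The sixth at 240 min against 0 min was NR1D1, at -0.32. Members were counted at 122 to 2910 reads per library, so PER1, BHLHE40, ARNTL and NR1D1, with the fewest reads, have the widest intervals.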
